A study of Mus musculus with 20 samples.

Results

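The 33 genes described here are interferon-stimulated genes of the type I response, chosen by symbol: Ifit1, Ifit2, Ifit3, Ifit3b, Isg15, Rsad2, Oas1a, Oas1g, Oas2, Oas3, Oasl1, Oasl2, Mx1, Mx2, Irf7, Irf9, Stat2, Usp18, Zbp1, Ifih1, Dhx58, Bst2, Ifi27, Ifi35, Ifi44, Xaf1, Parp9, Parp14, Dtx3l, Rtp4, Trim30a, Herc6 and Cmpk2. All 33 were found among the 55487 gene identifiers of the deposited table, and all 33 passed the low count filter that left 17464 genes. They were followed in bulk polyA RNA-seq of mouse small intestine, in 4 groups of 5 libraries. The groups were control pups at 2 weeks, pups born to dams with periodontitis at 2 weeks, control pups at 7 weeks and pups born to dams with periodontitis at 7 weeks. The purpose was to compare the intestine of offspring by the condition of the dam, so the pups themselves were not described as treated. The labels name no strain, sex, litter, segment of the intestine, number of pups per library, interferon or infection. Periodontitis is an inflammatory disease of the gums and of the bone around the teeth, and the offspring of affected dams are called periodontitis pups below.

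Type I interferons are secreted proteins that act through the receptor chains Ifnar1 and Ifnar2. The kinases Jak1 and Tyk2 then act on Stat2, which with Irf9 is part of a complex that binds the interferon-stimulated response element (ISRE) of target promoters. In intestinal epithelium, type III interferons act on the receptor Ifnlr1 and reach the same complex, so these genes cannot assign a signal to one kind of interferon. Their products include proteins that bind foreign RNA (the Ifit family), synthetases that activate RNase L (the Oas family), trapping GTPases (Mx), a ubiquitin-like modifier (Isg15), RNA and DNA sensors (Ifih1, Dhx58, Zbp1) and the regulators Irf7, Irf9, Stat2 and Usp18.

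Promoter sequence was read for the members that had an entry in RefSeq (GRCm38.p6), in windows from 250 bases before to 50 bases after the annotated start. A window was found for 23 of the 33 members, and 10 had none: Mx1, Mx2, Usp18, Rtp4, Parp9, Parp14, Zbp1, Oas2, Dhx58 and Ifi27. An ISRE core, read as GAAA, any 2 bases and again GAAA on either strand, lay in the windows of 12 of the 23 members (52.2%), against 3.99% of the 27025 genes with a window. These 12 were Bst2, Ifih1, Ifit1, Ifit3, Ifit3b, Isg15, Oas1a, Oas1g, Oas3, Rsad2, Stat2 and Trim30a. The core of the gamma-activated site, TTCNNNGAA on either strand, lay in 4 of the 23 (17.4%), against 9.55% of all genes with a window. No result below was tested against promoter sequence. The 200 bases before the start of 5 genes are shown, 5′ to 3′ on the gene's own strand and with ISRE core matches in capitals.
Isg15, chr4:156200819-156201018, minus strand: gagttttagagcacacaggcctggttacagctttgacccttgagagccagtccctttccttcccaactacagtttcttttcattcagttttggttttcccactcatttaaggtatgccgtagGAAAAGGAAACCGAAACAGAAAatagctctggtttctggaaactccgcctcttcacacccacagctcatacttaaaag
Oas3, chr5:120777660-120777859, minus strand: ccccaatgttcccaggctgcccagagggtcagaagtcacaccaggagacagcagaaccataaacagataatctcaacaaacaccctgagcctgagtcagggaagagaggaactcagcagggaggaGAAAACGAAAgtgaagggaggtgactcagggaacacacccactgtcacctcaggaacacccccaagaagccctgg
Ifit3, chr19:34583329-34583528, plus strand: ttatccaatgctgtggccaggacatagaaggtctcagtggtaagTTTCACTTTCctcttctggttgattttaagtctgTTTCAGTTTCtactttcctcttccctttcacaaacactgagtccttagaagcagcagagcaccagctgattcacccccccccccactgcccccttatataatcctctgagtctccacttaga
Ifit3b, chr19:34607757-34607956, plus strand: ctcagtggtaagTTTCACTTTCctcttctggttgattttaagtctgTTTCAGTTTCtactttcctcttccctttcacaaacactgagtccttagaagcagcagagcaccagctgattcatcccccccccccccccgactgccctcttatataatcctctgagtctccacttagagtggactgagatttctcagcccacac
Ifit2, chr19:34550494-34550693, plus strand: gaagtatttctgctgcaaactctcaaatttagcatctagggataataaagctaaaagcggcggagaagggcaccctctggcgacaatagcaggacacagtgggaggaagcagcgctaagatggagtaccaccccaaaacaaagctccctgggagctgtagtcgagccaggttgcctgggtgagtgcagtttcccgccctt
Isg15 has 3 matches that overlap each other and end 56 to 68 bases before the start, and Oas3 has 1 that ends 65 bases before it. Ifit3 and Ifit3b carry the same pair of matches on the opposite strand, seen as TTTCACTTTC and TTTCAGTTTC. None of these 4 windows holds the TTCNNNGAA core. Ifit2 has no ISRE core in either of its 2 windows and 1 TTCNNNGAA core in the window of the start shown, outside the bases printed. Its 2 GENCODE M21 transcripts start at 34550694 and 34550710 on chromosome 19, while the exon that holds nearly all its coding bases starts at 34573067, where no window lies.

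Depth ran from 14.9 to 42.6 M counts per library, with control library 5 at 2 weeks the shallowest. All values below are counts per M counts (CPM) after scaling by trimmed mean of M values (TMM). A pair of libraries stood apart over the 33 genes, and results that rest on them are given with and without them. In control library 5 at 2 weeks the members departed from the mean of the other 4 control libraries by -3.22 to 2.01 on the log2 scale. Bst2 (2.5 CPM against 15.1 to 19.8) and Ifi35 (6.28 against 54.5 to 63.1) were among the low ones, and Rtp4 (107 against 30.7 to 39.9) and Oasl2 (215 against 72.2 to 92.6) among the high ones. Over the 33 members the Spearman rho of this departure was -0.67 with GC content and 0.6 with exon length, and over 17441 genes it was -0.67 and 0.12, as a description within a single library. In periodontitis library 5 at 7 weeks 32 of the 33 members lay below the mean of the other 4 libraries, by a median of 1.42 on the log2 scale, while 53.5% of all genes lay above it. The 13 markers of intestinal epithelium were detected in all 20 libraries.

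**Figure D1:**
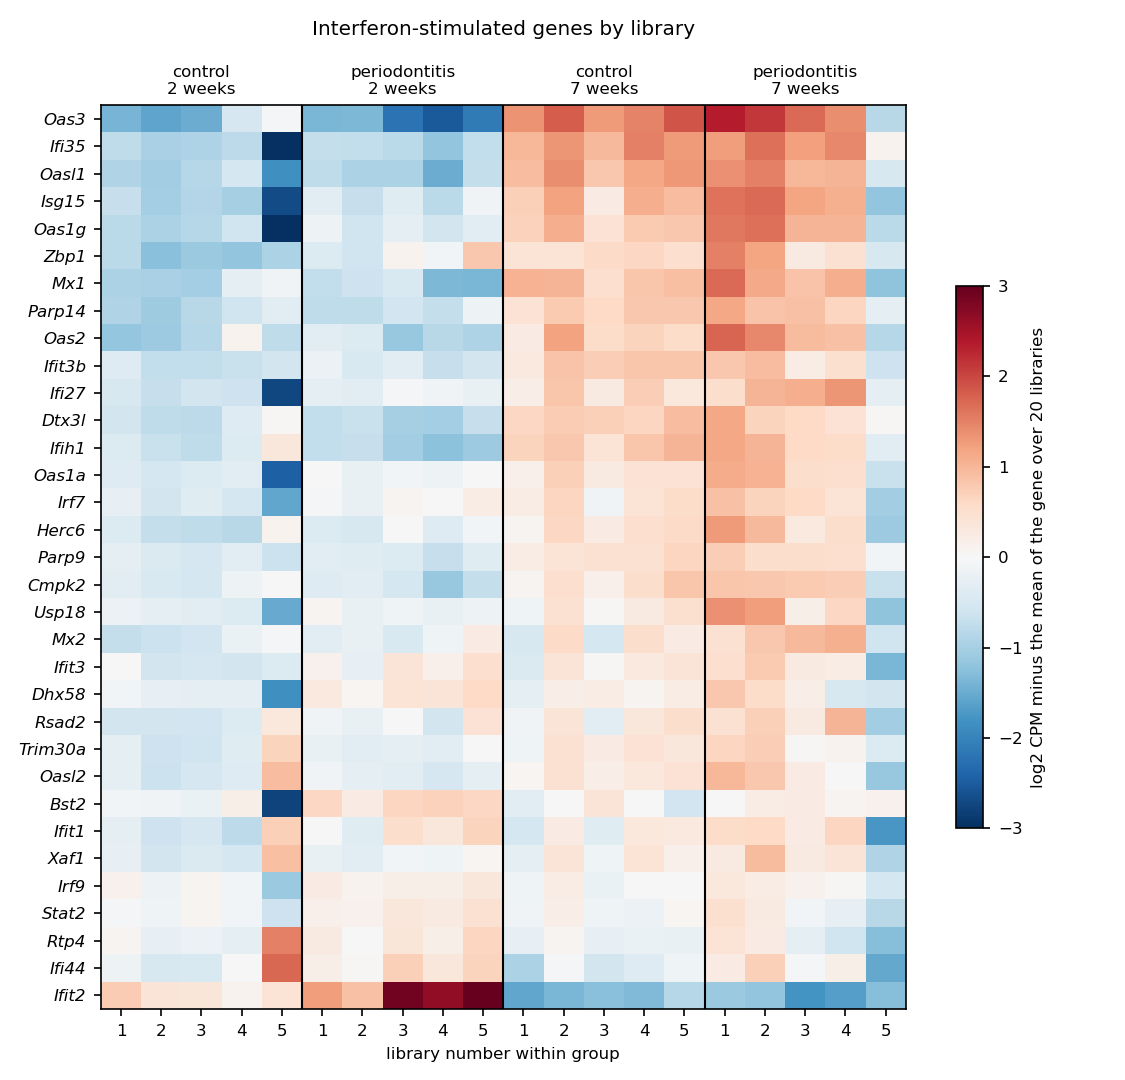
Heat map of the 33 genes (rows, ordered by the age difference in control pups) in 20 libraries (columns, by group), as log2 CPM minus the mean of the gene over all libraries; colours end at -3 and 3. Most rows are higher at 7 weeks, Ifit2 is high in periodontitis libraries 3 to 5 at 2 weeks, and the fifth control column at 2 weeks and the fifth periodontitis column at 7 weeks differ from their neighbours.

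**Figure D2:**
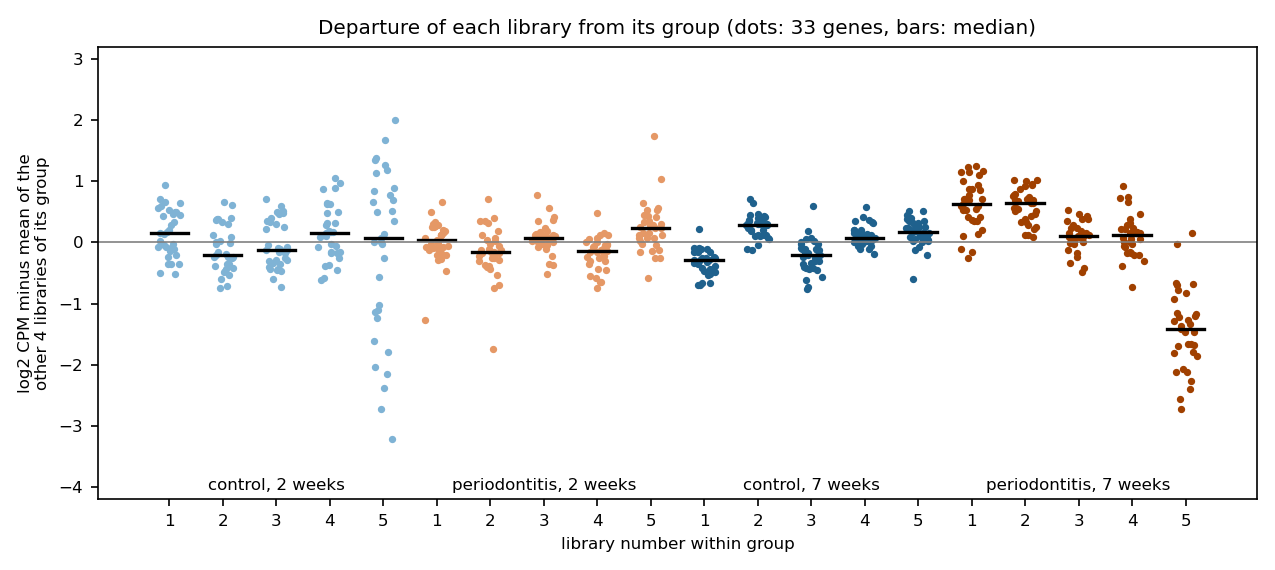
Departure of each library (x axis, by group) from the mean of the other 4 libraries of its group, in log2 CPM (y axis), with 1 dot per gene and a bar at the median. Control library 5 at 2 weeks spreads from -3.22 to 2.01 around a median of 0.08, and periodontitis library 5 at 7 weeks has a median of -1.42.

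The members were all detected in every library, over a wide range of levels. In control pups at 7 weeks, per kb of exon, Ifi35 was the highest at 144 ± 23 CPM per kb (SD, n = 5). Isg15 followed at 106 ± 25.3 CPM per kb and Oasl1, a synthetase-like protein without synthetase activity, at 76.9 ± 13.2. The ranges of Ifi35 (120 to 175) and Isg15 (68.9 to 133) overlapped, as did those of Isg15 and Oasl1 (60.8 to 92.3). Irf7, the factor that amplifies interferon production, stood at 56.1 ± 10.9 CPM per kb and Ifi27 at 45.9 ± 9.62. Below 1 CPM per kb lay Ifit2 (0.975 ± 0.185), Mx1 (0.977 ± 0.139), Oas2 (0.704 ± 0.192), Mx2 (0.507 ± 0.184) and Ifi44 (0.428 ± 0.101), whose neighbouring ranges also overlapped. Bulk tissue cannot tell fewer cells of a type from less RNA per cell, which holds for every level here.

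At 2 weeks 1 member, Ifit2, was higher in periodontitis pups by the test, and the other 32 were not called. Ifit2 binds RNA and takes part in the antiviral response and in cell death. It stood at 15.6, 12, 11.9, 9.95 and 12.2 CPM in control libraries 1 to 5. In periodontitis libraries 1 to 5 it stood at 21.9, 16.8, 68.4, 57.9 and 117 CPM. All 5 periodontitis libraries were above the highest control, libraries 1 and 2 by little and libraries 3 to 5 by much more. The log2 fold change was 2.19 ± 0.37 (SE, n = 5 per group), or 4.57-fold, with an edgeR adjusted p of 0.0427. That call was 1 of 33 members, and over all genes tested 3 rose, 0.0172%.

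The Ifit2 call lay close to the threshold. It was lost with DESeq2 size factors (edgeR adjusted p = 0.051), with the 2 groups fitted alone (0.249) and with a covariate for Y-linked transcripts (0.0693). Leaving out a single library at 2 weeks ended it for control 1, 2, 3 or 4 and for periodontitis 3, 4 or 5. At 7 weeks, whose libraries share the estimate of spread, it ended for control 1, 2, 3 or 4 and for periodontitis 3. In these fits the edgeR adjusted p ran from 0.0506 to 0.17. Without periodontitis library 5 at 2 weeks the log2 fold change was 1.74 and without library 2 it was 2.42. With DESeq2 the adjusted p was 9.18e-06, and that tool called 598 genes, 1.41% of all genes tested being higher. With summary scores of proximal and of distal intestine markers as covariates the log2 fold change was 1.11 ± 0.32 (edgeR adjusted p = 0.592).

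Other markers parted the same libraries. Periodontitis libraries 1 and 2 had mean levels of 6.6 and 6.5 log2 CPM over 6 distal markers. Libraries 3 to 5 had 4.86, 4.39 and 4.49, against 6.12 to 6.83 in the controls. Among the 6 are the ileal bile acid genes Fabp6 and Slc10a2, and Fgf15, whose mean CPM was higher in periodontitis pups. Between the dams 4 of the 6 had a negative log2 fold change and 2 a positive one (-2.66 to 0.67). The summed level of 10 genes of the suckling enterocyte was 3615 and 2715 CPM in libraries 1 and 2 and 6516, 6261 and 7182 CPM in libraries 3 to 5, against 1101 to 2698 CPM in the controls. The mean level of the proximal markers was 8.04, 8.08, 7.43, 6.94 and 7.53 log2 CPM in periodontitis libraries 1 to 5, against 7.7 to 8.15 in the controls. That of the weaned enterocyte markers was 8.8, 8.93, 7.53, 6.89 and 7.28 log2 CPM, against 8.9 to 9.36. Libraries 3 to 5, highest for Ifit2, were lowest of the 10 for the distal, proximal and weaned lists and highest for the suckling list. The 12 markers of macrophages and monocytes summed to 262.9 to 313.1 CPM in periodontitis pups and 109 to 257.6 CPM in controls. No marker was at 0 counts in any library of that age. The 109 CPM was that of control library 5, and the other controls had 201.3 to 257.6 CPM. Their mean log2 CPM overlapped between the dams (3.17 to 3.61 against 1.96 to 3.37). This list did not part libraries 3 to 5 from 1 and 2, as library 1 had the highest sum. The part of these markers in the Ifit2 difference was not tested beyond the covariate fit.

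Counting all 33 members, Ifit2 included, 23 had a positive log2 fold change at 2 weeks and 10 a negative one, where 52.7% of all genes had a positive one. The median log2 fold change was 0.26 over the members and 0.02 over all genes. At an unadjusted p under 0.05, 7 members were higher and 2 lower, against 5.31% and 9.07% of all genes. In 9 members every periodontitis library lay above every control library, and in 0 the reverse, against 3.71% and 3.54% of all genes. These 9 were Ifit2, Zbp1, Bst2, Dhx58, Irf7, Stat2, Oas1a, Oas1g and Ifi27. Leaving out each library of that age in turn gave 9 to 13 members without overlap. The 13 came without control library 1, all higher, against 5.14% of all genes. Without control library 3 there were 9 higher and 1, Ifih1, lower, against 5.25% and 4.57% of all genes.

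Zbp1, a sensor of left-handed nucleic acid that can start cell death, stood at 12.7, 9.27, 10.1, 9.71 and 11.4 CPM in the controls and at 16.7, 14.7, 23.9, 20.8 and 38.5 CPM in periodontitis pups. As with Ifit2, libraries 3 to 5 were the highest, though the gap to libraries 1 and 2 was smaller. The log2 fold change was 1.1 ± 0.29 (edgeR adjusted p = 0.0928). It passed the threshold with DESeq2, without periodontitis library 2 at 2 weeks, without periodontitis library 5 at 7 weeks, and without both of the libraries that stood apart, with an adjusted p down to 0.0214. Over all alternatives the log2 fold change of Zbp1 ran from 0.74 to 1.23.

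Bst2, the tether that holds virions at the cell surface, stood at 16.4, 16.2, 15.1, 19.8 and 2.5 CPM in the controls and at 26.9, 20.6, 27.2, 27.9 and 26.8 CPM in periodontitis pups. The groups did not overlap with or without control library 5, whose value was the lowest by far. The log2 fold change was 0.88 ± 0.31 (edgeR adjusted p = 0.194). Dhx58, the helicase LGP2, stood at 9.61, 8.65, 8.41, 8.32 and 2.82 CPM against 12.6, 10.6, 13.5, 13.4 and 15.5 CPM, a log2 fold change of 0.78 ± 0.27 (edgeR adjusted p = 0.192). Control library 5 was again the lowest, and the other 4 controls also lay below all periodontitis libraries.

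Irf7 and Stat2, both needed to relay or amplify the interferon signal, were not called. Irf7 ran from 56.2 to 138 CPM in controls and from 140 to 191 CPM in periodontitis pups (0.58 ± 0.27, edgeR adjusted p = 0.33). Stat2 ran from 31.6 to 51.2 CPM and from 52.5 to 66.8 CPM (0.42 ± 0.19, edgeR adjusted p = 0.309). For both, the gap between the groups was a few CPM. Ifit3, a partner of Ifit1, ran from 20.9 to 30.6 CPM and from 25.9 to 43.7 CPM, so its groups overlapped (0.6 ± 0.27, edgeR adjusted p = 0.317).

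The 2 members with a negative value and an unadjusted p under 0.05 were Oas3 and Ifih1. Oas3, a long synthetase, stood at 7.15, 6.33, 6.75, 13.4 and 18.4 CPM in controls and at 7.27, 7.46, 4.06, 3.29 and 4.31 CPM in periodontitis pups. Periodontitis libraries 3 to 5, the highest for Ifit2, were the lowest for Oas3, and libraries 1 and 2 lay within the control range. The log2 fold change was -0.96 ± 0.42 (edgeR adjusted p = 0.298). Ifih1, the RNA sensor MDA5, stood at 52.1, 43.7, 41.2, 52.5 and 87.2 CPM against 41.7, 42.9, 33.8, 29.4 and 32.9 CPM (-0.61 ± 0.24, edgeR adjusted p = 0.241). Here too libraries 3 to 5 were the lowest, and the groups overlapped through libraries 1 and 2. With the proximal and distal covariates the differences were -0.42 for Oas3 and -0.36 for Ifih1.

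**Figure D3:**
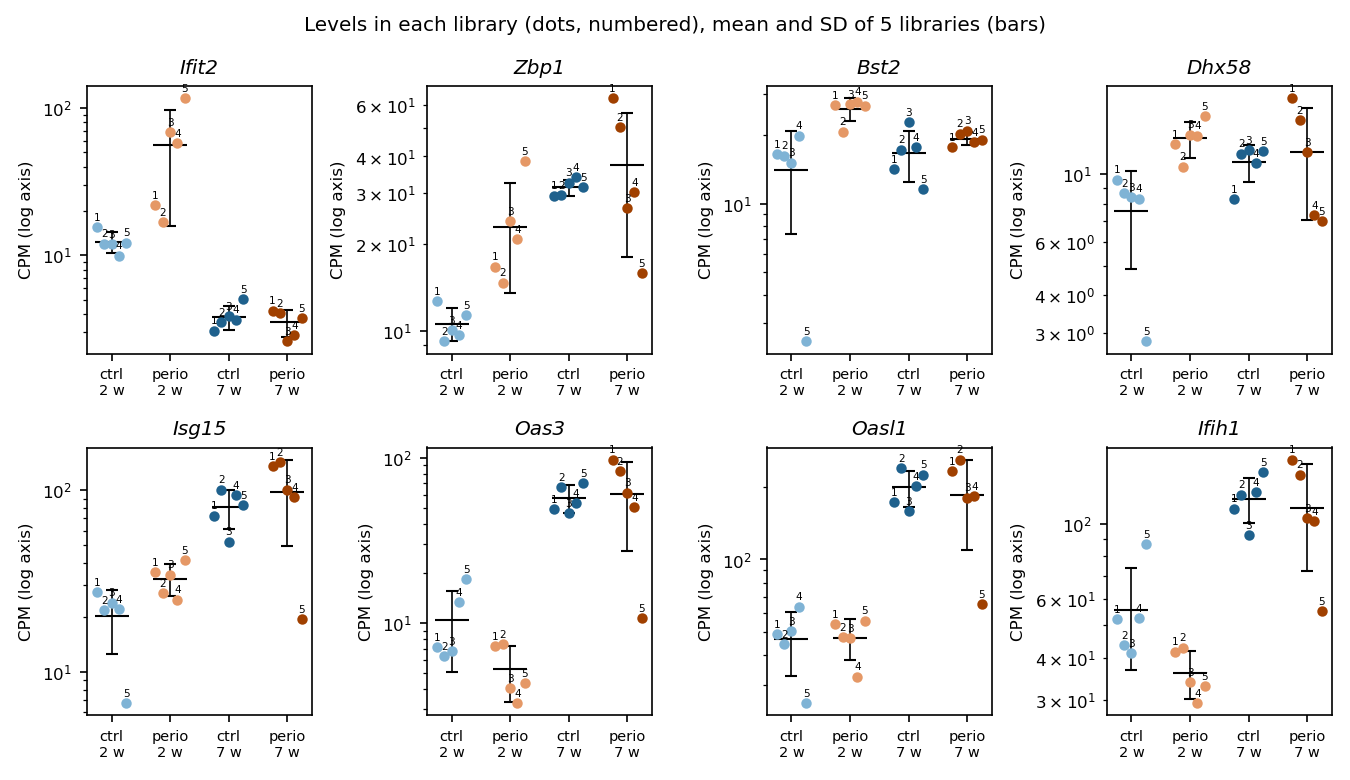
CPM (log axis) of 8 members in each library (dots, numbered by library within group) with the mean and SD of 5 libraries (bars), by group on the x axis (ctrl, control; perio, periodontitis; w, weeks). Ifit2 separates periodontitis libraries 3 to 5 at 2 weeks (57.9 to 117 CPM) from all others, Oas3 and Ifih1 are lowest in the same libraries, and most panels show periodontitis library 5 at 7 weeks low.

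Without both libraries that stood apart, 4 members were called at 2 weeks (Ifit2, Ifit1, Zbp1 and Bst2), all higher. In that fit 361 of all genes were called, against 5 with all libraries, and 1.2% of all genes were called higher. Ifit1 had 62.3 to 88.3 CPM in control libraries 1 to 4, 177 CPM in control library 5 and 84 to 170 CPM in periodontitis pups. Its log2 fold change with all libraries was 0.47 ± 0.36.

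At 7 weeks no member was called between the dams. By edgeR 0 of 33 members passed, 0 had an unadjusted p under 0.05 and 0 parted the groups without overlap, and DESeq2 called 0. Over all genes tested 2 rose (0.0115%) and 0 fell (0%), 3.33% had an unadjusted p under 0.05, and 0.246% were higher and 0.281% lower without overlap. A positive log2 fold change was found in 25 of 33 members, against 54.7% of all genes, with a median of 0.1 against 0.02. SEs of 0.14 to 0.41 over the members leave room for differences of that order.

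The 3 largest differences at 7 weeks were those of Mx2, Usp18 and Ifi44. Mx2 belongs to the Mx family of GTPases and is annotated in GENCODE M21 as a polymorphic pseudogene. It stood at 1.16, 2.5, 1.12, 2.41 and 1.97 CPM in controls and at 2.28, 2.92, 3.29, 3.49 and 1.07 CPM in periodontitis pups (0.51 ± 0.3, edgeR adjusted p = 1). Its periodontitis library 5 was the lowest of all 10. Usp18, which removes Isg15 from proteins and damps the receptor, ran from 12.8 to 19.4 CPM and from 6.02 to 36.4 CPM (0.45 ± 0.33). Ifi44 ran from 1.76 to 3.29 CPM and from 1.16 to 5.68 CPM (0.45 ± 0.41). Ifit2, called at 2 weeks, had -0.13 ± 0.37 here, with 3.08 to 5.03 CPM in controls and 2.6 to 4.21 CPM in periodontitis pups. Zbp1, called at neither age, had 0.25 ± 0.29. The lowest value was that of Ifit3b (-0.27 ± 0.22).

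Periodontitis library 5 weighed on these values. Isg15 stood at 136, 143, 101 and 91.7 CPM in periodontitis libraries 1 to 4 and at 19.5 CPM in library 5, against 52.1 to 101 CPM in controls. The summed level of the 33 members was 2803, 2748, 2194 and 2191 CPM in libraries 1 to 4 and 920.7 CPM in library 5, against 1761 to 2331 CPM in controls. Ifit2 and Bst2 did not follow, with 3.76 CPM in library 5 against 2.6 to 4.21 CPM for Ifit2 and 19 against 17.6 to 20.8 CPM for Bst2. In the same library 13 epithelial markers summed to 14710 CPM, against 24750 to 29240 CPM in the other 4, and 7 endothelial markers to 82.03 CPM, against 29.62 to 41.44 CPM. Macrophage markers summed to 214.7 CPM there, against 72.41 to 137 CPM. The part of these markers in the low level of the members was not tested.

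Without periodontitis library 5, 31 of 33 members were positive at 7 weeks, with a median of 0.3 against -0.01 over all genes, 4 had an unadjusted p under 0.05, against 9.37% of all genes, and 0 were called. Without both libraries that stood apart, 31 were positive and 14 had an unadjusted p under 0.05, against 18.3% of all genes, and 0 were called. Without periodontitis library 1 the count of positive members fell to 14 and the median to -0.03. With the proximal and distal covariates 3 members were positive and the median was -0.36. Without periodontitis library 2 at 7 weeks 19 were positive, and leaving out a control library of 7 weeks gave 21 to 28. The count of positive members at 7 weeks thus moved with some single libraries and with the covariates, and the cause was not tested.

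**Figure D4:**
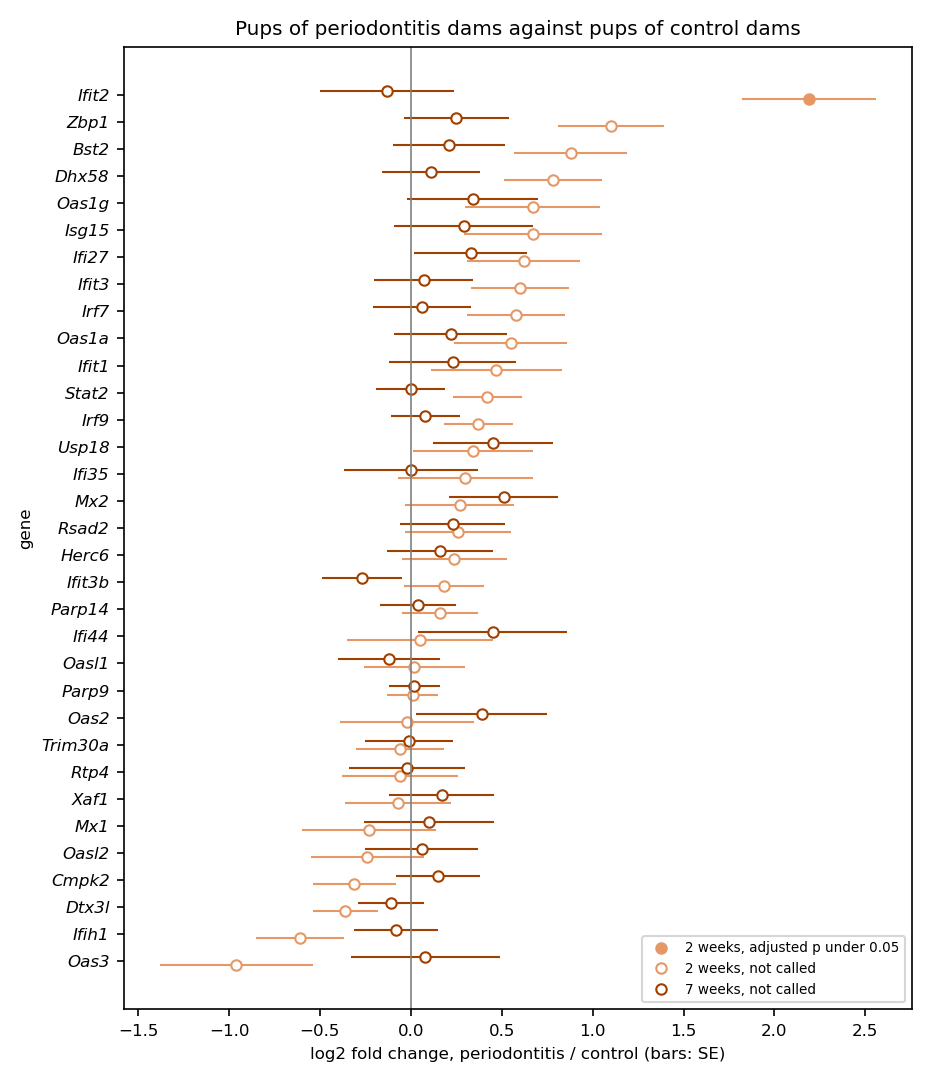
Log2 fold change between periodontitis and control pups (x axis, bars SE) for each member (y axis), at 2 weeks (light) and 7 weeks (dark), with filled dots for an edgeR adjusted p under 0.05. The filled dot of Ifit2 at 2 weeks (2.19) is the only filled one, and values at 7 weeks lie between -0.27 and 0.51.

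The change of the dam difference from 2 to 7 weeks was tested by the interaction, in which 0 of 33 members were called, against 0.0229% of all genes higher and 0% lower. At an unadjusted p under 0.05 there were 2 members, Ifit2 and Zbp1, against 8.8% of all genes. Ifit2 had an interaction of -2.32 ± 0.52 (edgeR adjusted p = 0.186), so its 2-week difference was not shown to differ from the 7-week one by this test. DESeq2 called it (adjusted p = 0.00901), as did edgeR without periodontitis library 2 at 2 weeks (-2.55, adjusted p = 0.0272). Zbp1 had -0.85 ± 0.41 (edgeR adjusted p = 0.567) and Oas3 1.04 ± 0.58 (edgeR adjusted p = 0.605). The next by p, Stat2, Dhx58, Bst2, Ifih1 and Ifit3b, ran from -0.67 to 0.53.

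From 2 to 7 weeks most members rose in control pups. By edgeR 18 of 33 rose and 1, Ifit2, fell, against 27.1% and 34.4% of all genes tested. A positive log2 fold change was found in 30 of 33 members and in 45.6% of all genes, with medians of 0.88 and -0.13. In 18 members every library of 7 weeks lay above every library of 2 weeks and in 1 below, against 22.5% and 23.2% of all genes. DESeq2 called the same 19 members.

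The Oas family rose throughout, with the exception of Oasl2. Oas3 went from 6.33 to 18.4 CPM at 2 weeks to 46.5 to 70.6 CPM at 7 weeks (log2 fold change 2.48 ± 0.43, edgeR adjusted p = 7.7e-05). Oasl1 went from 25.2 to 63.5 CPM to 159 to 241 CPM (2.11 ± 0.29, edgeR adjusted p = 7.11e-06). Neither gene overlapped between the ages. Oas1g, Oas2 and Oas1a rose by 1.81 ± 0.38, 1.39 ± 0.37 and 1.04 ± 0.31. Oasl2, with 72.2 to 215 CPM and 117 to 154 CPM, had 0.34 ± 0.31 and was not called.

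Among effectors, Ifi35 went from 6.28 to 63.1 CPM to 208 to 303 CPM (2.36 ± 0.39, edgeR adjusted p = 4.86e-05), and Isg15 from 6.76 to 27.4 CPM to 52.1 to 101 CPM (1.97 ± 0.39, edgeR adjusted p = 0.000271). Without control library 5 the lowest 2-week values would be 54.5 and 21.8 CPM. Mx1 rose by 1.55 ± 0.37, from 0.955 to 1.85 CPM to 2.85 to 4.15 CPM, Ifi27 by 1.32 ± 0.31 and the nucleotide kinase Cmpk2 by 0.73 ± 0.23. The ADP-ribosylation genes rose together. Parp14 went from 42.7 to 71 CPM to 120 to 156 CPM (1.42 ± 0.21, edgeR adjusted p = 1.55e-05), Dtx3l rose by 1.2 ± 0.18 and its binding partner Parp9 by 0.88 ± 0.14. Parp9 and Dtx3l overlap on opposite strands, so without stated strand their reads cannot be told apart in the shared part.

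Of the sensors, Zbp1 went from 9.27 to 12.7 CPM to 29.3 to 33.9 CPM (1.56 ± 0.3, edgeR adjusted p = 0.000177), and Ifih1 from 41.2 to 87.2 CPM to 92.7 to 142 CPM (1.1 ± 0.24, edgeR adjusted p = 0.000588). Dhx58 had 0.52 ± 0.27 and was not called. Of the regulators only Irf7 rose (0.95 ± 0.27, edgeR adjusted p = 0.00524), while Irf9 (0.15 ± 0.19), Stat2 (0.12 ± 0.19) and Usp18 (0.7 ± 0.33) were not called. The Ifit family split. Ifit3b rose by 1.35 ± 0.23, Ifit1 (0.22 ± 0.35) and Ifit3 (0.55 ± 0.27) were not called, and Ifit2 fell from 9.95 to 15.6 CPM to 3.08 to 5.03 CPM (-1.69 ± 0.37, edgeR adjusted p = 0.000666). The E3 ligase Herc6 rose by 0.91 ± 0.29.

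Of these rises in control pups, 5 were no longer called with the summary scores of proximal and distal markers as covariates. Ifi35 then had 3.28 ± 1.37 (edgeR adjusted p = 0.0631), Irf7 2.03 ± 0.89 (0.0741), Oas1a 1.94 ± 1.1 (0.167), Ifi27 1.92 ± 1.11 (0.173) and Zbp1 1.4 ± 0.93 (0.241). In periodontitis pups Ifi27, Oas1a, Usp18 and Zbp1 lost theirs in that fit. Its SEs were larger, as for Ifi35 in control pups (1.37 against 0.39). The distal score did not overlap between the ages, so this fit cannot separate age from segment.

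In periodontitis pups 19 members rose with age and 1, Ifit2, fell, against 30.4% and 35.7% of all genes. Compared with control pups, Mx2 (0.82 ± 0.3) and Usp18 (0.82 ± 0.33) were added to the rises and Irf7 (0.43 ± 0.27) was not called. Several of these calls hung on single libraries. Leaving out 1 library ended that of Usp18 for periodontitis 2, 3, 4 or 5 at 2 weeks and 1 or 2 at 7 weeks, and that of Zbp1 (0.7 ± 0.29) for 1, 2, 3 or 4 at 2 weeks and 1 or 2 at 7 weeks. The call of Mx2 ended for periodontitis 3 at 2 weeks and 3 or 4 at 7 weeks, that of Herc6 for 1 at 7 weeks, and that of Oas1a (edgeR adjusted p = 0.0492) for any library except the pair that stood apart. Both contrasts share no libraries, and none of the differences between them passed the interaction test. Oas3 went from 3.29 to 7.46 CPM to 10.7 to 97.5 CPM (3.52 ± 0.45, edgeR adjusted p = 1.97e-06). Ifit2 went from 16.8 to 117 CPM to 2.6 to 4.21 CPM (-4.01 ± 0.4, edgeR adjusted p = 1.22e-07). Ifih1 rose by 1.62 ± 0.24, Oasl1 by 1.97 ± 0.29, Ifi35 by 2.05 ± 0.39, Mx1 by 1.87 ± 0.37 and Oas2 by 1.8 ± 0.37. Here 6 of 33 members were higher without overlap, a smaller share than the 24.9% of all genes. In 1 member, Ifit2, every library of 7 weeks lay lower, as in 4935 of 17464 genes. In periodontitis library 5 at 7 weeks Isg15 (19.5 CPM) lay below the 2-week range and Mx1 (0.839 CPM) within it.

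**Figure D5:**
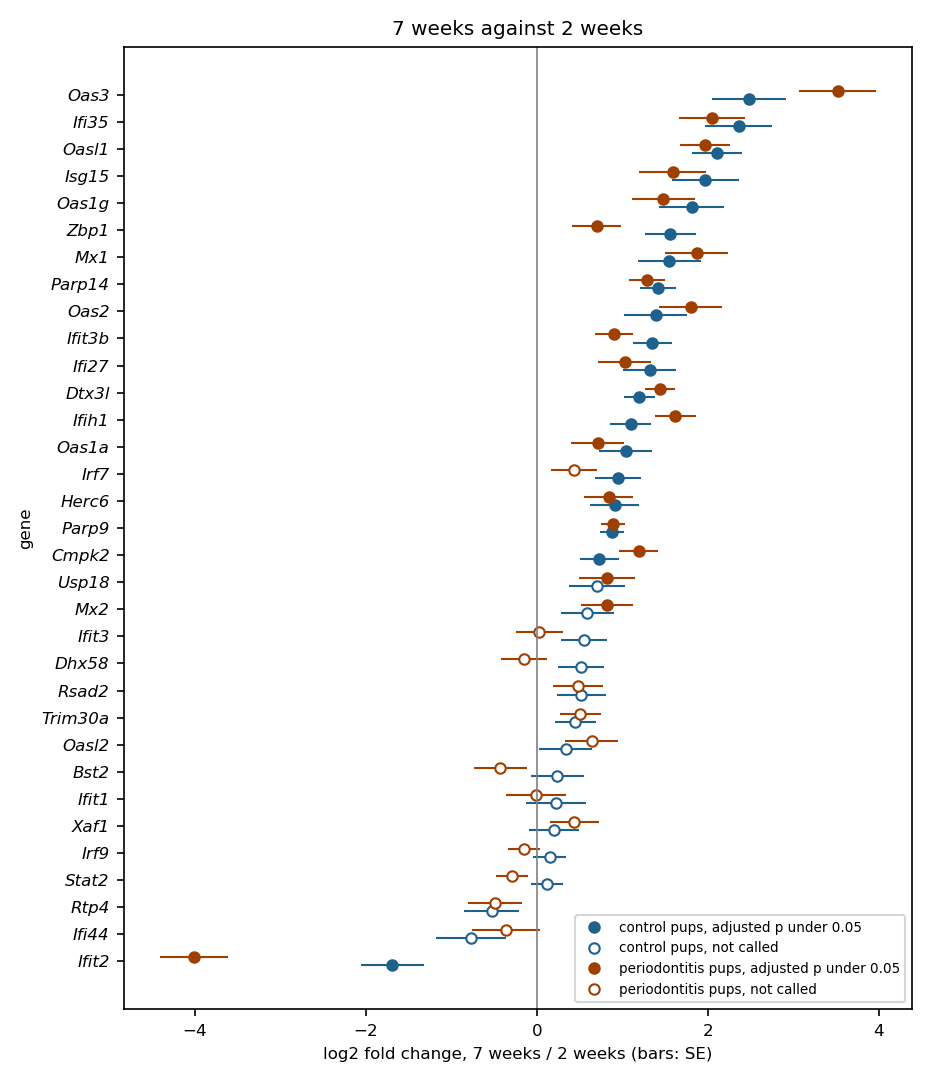
Log2 fold change from 2 to 7 weeks (x axis, bars SE) for each member (y axis), in control pups (blue) and periodontitis pups (brown), with filled dots for an edgeR adjusted p under 0.05. Ifit2 is the only member called lower (-1.69 and -4.01), and Oas3 has the highest value in both (2.48 and 3.52).

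Markers of segment and cell type moved with age as well. Fgf15, a hormone of the ileum, had a mean level of 52.9 CPM (control) and 84.2 CPM (periodontitis) at 2 weeks and 0 counts in all 10 libraries of 7 weeks, which allows up to 0.0177 and 0.0192 CPM over the 5 libraries of each group. Fabp6 went from a mean of 278 CPM to 0.166 CPM in control pups. Over the 6 distal markers 0 rose and 4 fell in control pups, and 1 rose and 4 fell in periodontitis pups. In control pups the 6 summed to 682.6 to 1092 CPM at 2 weeks and 266.3 to 374.7 CPM at 7 weeks, so the whole list was not lost. Age and the piece of intestine sampled cannot be told apart here. Of 10 suckling enterocyte markers 1 rose and 6 fell in control pups, and 0 rose and 7 fell in periodontitis pups. Of 8 weaned enterocyte markers 7 rose and 1 fell in each. Over all genes 27.1% rose and 34.4% fell in control pups, and 30.4% and 35.7% in periodontitis pups. The part of the change from suckling to weaned markers in the rise of the members was not tested. By Y-linked transcripts the mix of sexes was not the same at both ages either. At 2 weeks 4 Y-linked genes summed to 0.01937 to 213.5 CPM in control and 0.03739 to 107.2 CPM in periodontitis libraries. At 7 weeks they summed to 104.2 to 184.5 and 88.92 to 261.8 CPM. With a covariate for Y-linked transcripts 18 members rose and 1 fell with age in control pups, against 26.2% and 32.8% of all genes. In periodontitis pups 16 rose and 1 fell, against 27.8% and 33.1%. The 13 markers of T and NK cells summed to 16.4 to 29.86 CPM in control pups at 2 weeks and 134.6 to 297.6 CPM at 7 weeks. Of the 12 tested 9 rose and 1 fell, against 27.1% and 34.4% of all genes. Epithelial markers summed to 7240 to 12230 CPM and 20610 to 27580 CPM. The 7 endothelial markers all fell in control pups, where 34.4% of all genes fell. With the proximal and distal covariates 16 members were called in control pups, 15 higher and 1 lower, against 17.5% and 23.9% of all genes. In periodontitis pups 18 were called, 17 higher and 1 lower, against 22.7% and 28.8%. The medians over the members were 2.21 and 1.69, and over all genes -0.18 in both. The distal score parted the ages without overlap. In control pups it ran from 6.12 to 6.83 log2 CPM at 2 weeks and from 1.16 to 2.25 at 7 weeks. In periodontitis pups it ran from 4.39 to 6.6 and from 0.55 to 1.96. The score thus runs with age, so neither the calls kept nor those lost in this fit can separate age from segment.

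The rest of the pathway was read from lists of genes that are not members. Of 11 interferon genes 0 passed the low count filter. Ifnb1 had 0 counts in all 20 libraries, which allows up to 0.00451 CPM over the 665.3 M counts, and Ifng had 11 counts in all. Transcripts of interferons can be brief or come from few cells, so levels this low set no limit on the protein. The 9 markers of plasmacytoid dendritic cells, a source of type I interferon, summed to 141.9 to 221.4 CPM in control and 147.1 to 177.9 CPM in periodontitis pups at 2 weeks, with overlap. The 221.4 CPM was that of control library 5, and the other controls had 141.9 to 155.3 CPM. In control library 1 the median over the list was 0.86 log2 CPM beside a sum of 154.5 CPM. A few of the genes thus carried the sum, which does not measure these cells. Of 9 receptor and kinase genes 0 were called between dams at 2 or 7 weeks. With age in control pups 6 of 9 rose and 0 fell, against 27.1% and 34.4% of all genes. Among the 6 were Ifngr2, a chain of the type II receptor (1.28 ± 0.22), and the kinases Jak2 (0.94 ± 0.22) and Jak1 (0.6 ± 0.12). Ifnar1, a chain of the type I receptor, had -0.02 ± 0.16 with age and a mean of 38.7 CPM at 2 weeks, and Ifnlr1 rose by 0.51 ± 0.22 (edgeR adjusted p = 0.0448).

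Of 12 sensors and adaptors 8 rose and 2 fell with age in control pups, against 27.1% and 34.4% of all genes. The ubiquitin ligase Trim25 rose by 1.14 ± 0.17 and the mitochondrial adaptor Mavs by 1.19 ± 0.21, while the DNA sensor Cgas fell (-1.28 ± 0.28). Of 10 transcription factors and brakes 6 rose and 0 fell, against the same shares of all genes, with Irf1 at 1.65 ± 0.23 (edgeR adjusted p = 9.03e-06). Of 32 other interferon-stimulated genes 14 rose and 6 fell, against the same 27.1% and 34.4%. The rises included Psmb8, an immunoproteasome subunit, at 2.51 ± 0.3 and the peptide transporter Tap1 at 2.01 ± 0.26. Genes that type II interferon also induces are among these, so their rise is not particular to the type I response. Between dams 0 genes of these lists were called at either age. Tlr3, a sensor of double-stranded RNA, had -1.07 ± 0.3 at 2 weeks (edgeR adjusted p = 0.107).

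Some members are near copies of each other. The longest coding transcripts of Ifit3 and Ifit3b were identical at 98.0% of 1697 aligned bases, and those of Oas1a and Oas1g at 97.5% of 1860. How reads are split within these pairs is uncertain, which bears on the age rise of Ifit3b (1.35) beside that of Ifit3 (0.55). Mx1 and Mx2 were identical at 83.0% of aligned bases and Ifit1 and Ifit2 at 62.6%. Irf7 overlaps Phrf1, Rtp4 overlaps Masp1 and Dhx58 overlaps Dhx58os on the opposite strand, and Irf9 overlaps Rnf31 on the same strand.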

How the data were processed

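Small intestine RNA of 20 libraries was measured, grouped by the titles and treatment and age labels. The deposited values are expected counts per gene that the authors made, per the submitters' processing notes, with cutadapt 4.8, FastQC 0.11.8, STAR 2.7.8a and RSEM 1.3.3. They give both GRCh38 and GRCm38 as builds, and the annotation release and strandedness are not given in the sources used here. Rounding changed 0 values, and 4 lines that name no gene held 0 counts. Of 55487 gene identifiers 55227 matched GENCODE M21 on GRCm38.

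Counts were fitted in R 4.3.3 with edgeR 4.0.16 (filterByExpr, TMM, robust quasi-likelihood, 1 mean per group over 20 libraries, 16 residual degrees of freedom). The p-values are two-sided and Benjamini-Hochberg adjusted over 17464 genes, with a threshold of 0.05. The SE was worked back from the test, as |log2 fold change| over the root of the F statistic. Log2 CPM use a prior count of 2. CPM means are given with SD. The filter took at most 0.0838% of a library's counts. Alternatives were DESeq2 1.42.0 and its size factors, other filters, a non-robust fit, a fit to the compared groups only, a replicate block, scores of Y-linked or of proximal and distal genes as covariates, and leaving out libraries. Transcripts were aligned with biopython 1.88. The procedure was tested on simulated data.

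The members, the pathway and marker lists and the rule for naming genes were chosen with earlier results of these data known. By that rule a member is given in full where it has an adjusted p under 0.05 in any contrast or is among the 8 smallest p of a dam contrast or the interaction or the 4 smallest of an age contrast; up to 4 genes are named per pathway list, with Ifnar1, Ifnlr1, Ifnb1 and Ifng always, and 1 gene that the rule names is not reported here. Of 188 list genes 187 were found. Single-library values were picked for display after they were seen. Same-numbered libraries of different groups were checked for pairing: of 30 pairs 4 had a correlation over 0.1 (range -0.4 to 0.29), so the numbers were not used as pairs. The labels do not say that libraries come from separate litters or animals, so p-values measure the spread between these libraries, which may be smaller than that between litters. The floors given for genes with 0 counts cover counting error only, while the SEs also hold the spread between libraries.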

Additional observations from a re-analysis of the deposited data

Results flagged for a closer look

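Each member was checked in each group of 5 libraries, on the log2 scale of CPM. The check sought a highest or lowest library whose gap to its nearest neighbour was over 0.71 of the whole range. Of 132 such groups 32 held one, where chance gives about 1 in 20. Most lay in the libraries that stood apart. In control library 5 at 2 weeks the lowest values were those of Isg15 (6.76 CPM), Oas1a (6.52 CPM), Oas1g (1.77 CPM), Irf7 (56.2 CPM), Irf9 (21.1 CPM), Usp18 (4.83 CPM), Dhx58 (2.82 CPM), Bst2 (2.5 CPM), Ifi27 (7.08 CPM) and Ifi35 (6.28 CPM), and the highest were those of Rsad2 (29.9 CPM), Oasl2 (215 CPM), Ifi44 (11.5 CPM), Xaf1 (28.7 CPM), Rtp4 (107 CPM) and Trim30a (25.5 CPM). That library was the shallowest, and its departures went with GC content, as given above.

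In periodontitis library 5 at 7 weeks the mean log2 CPM over the 33 members was 3.88, against 5.1 to 5.52 in libraries 1 to 4. The members far below their group mates there were Ifit1 (32 CPM), Ifit3 (11.9 CPM), Isg15 (19.5 CPM), Oas1g (9.52 CPM), Oasl1 (65.1 CPM), Mx1 (0.839 CPM), Irf7 (79.4 CPM), Ifi35 (115 CPM) and Cmpk2 (31.1 CPM). Epithelial, endothelial and macrophage markers differed in the same library, and their part was not tested.

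The rest lay in other libraries. Ifit3 (30.6 CPM) was high in control library 1 at 2 weeks. Low values stood in control library 1 at 7 weeks for Ifit3b (6.4 CPM) and Dhx58 (8.29 CPM), in periodontitis library 2 at 2 weeks for Bst2 (20.6 CPM) and in periodontitis library 4 at 2 weeks for Ifi35 (46.6 CPM) and Parp9 (47.7 CPM). Rtp4 (39.6 CPM) was high in control library 2 at 7 weeks.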

How the results depend on the processing

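The count of members called at 2 weeks was 1 and became 2 with DESeq2 (598 of all genes called, against 5), 4 without both libraries that stood apart (361 of all genes), and 0 with DESeq2 size factors, the groups fitted alone, the Y-linked covariate, the proximal and distal covariates, or the replicate number as a block (replicate block: 0 called, Ifit2 at 2.03, edgeR adjusted p = 0.123). Leaving out each library in turn gave 0 to 2 at 2 weeks, 0 for the interaction with the exception of 1 without periodontitis library 2, 19 to 23 for age in control pups and 16 to 25 for age in periodontitis pups. The interaction count was 1 with DESeq2. The count of members without overlap at 2 weeks ran from 9 to 13, an alternative chosen after the data were seen. At 7 weeks all alternatives run gave 0 members called. The library numbers do not pair the samples by the check given with the processing; with the block 20 members were called for age in control and 17 in periodontitis pups.

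Of 1882 alternative values for the 63 results of named members 9 changed sign. Over all 33 members, the proximal and distal covariates changed 22 signs at 7 weeks (25 positive members became 3) and 14 for the interaction (14 positive became 0), and leaving out periodontitis library 1 at 7 weeks changed 11. The 9 sign changes among the results of named members were as follows. With the proximal and distal covariates they were, at 7 weeks, Ifi44 (-0.57), Oas2 (-0.27), Zbp1 (-0.23), Oas1g (-0.16), Mx2 (-0.06) and Usp18 (-0.02), and for the interaction Oas3 (-0.5) and Ifih1 (-0.13). Without periodontitis library 1 at 7 weeks the only named result to change sign was that of Zbp1, which ran from -0.03 to 0.45 over the left-out libraries. The cause was not tested. With age in periodontitis pups Oas1a, Zbp1, Usp18, Mx2, Herc6 and Ifi27 lost their call under at least 1 alternative. Age calls were otherwise kept in control pups, except that Oas1a, Irf7, Zbp1, Ifi27 and Ifi35 lost theirs with the proximal and distal covariates. Members near 1 CPM, such as Mx1, Mx2 and Oas2 at 2 weeks, rest on 14 to 94 counts per library.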
